A study of Mus musculus with 30 samples.

Results

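A group of 52 mouse genes had lower transcript levels in DC3.2 cells after interferon gamma (IFNγ) than in media in each of 4 genotypes. The members were selected on these same values. TPM, an abundance normalised for transcript length and library size, was taken as y = log2(TPM + 1), and a gene was kept where its mean over the 8 media libraries was at least 5 TPM and its mean y with IFNγ was at least 0.3 below that in media in WT, IRF1KO, IRF2KO and DKO alike. Of 31427 measured gene symbols, 8787 reached 5 TPM in media, and 54 of these met the drop in all 4 genotypes. Cish and Socs2 were left out by name, which leaves the 52. The other 6 names on the same exclusion list (Fos, Egr1, Dusp1, Dusp6, Rgs2 and Aim2) did not meet the drop, and a limit on the mean difference between IRF2-present and IRF2-deficient libraries (y higher by 0.6 or more where IRF2 is present) removed no gene.

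RNA sequencing measured transcripts in DC3.2, a mouse dendritic cell line, in 30 libraries. The selection used 24 of them, in 12 groups of 2: WT (nosg in the titles), IRF1KO (IRF1sg), IRF2KO (IRF2sg) and DKO cells, each kept for 2 h in 5000 U/mL interferon alpha (IFNα), in 2 ng/mL IFNγ or in media alone. The remaining 6 libraries have 1 library per group and compare Dc3.2 with Dc3.2_Irf2KO cells at 0 h and after 2 h of IFNα or of LPS (dose not stated). They were quantified against another transcript set, so their levels are not set against those of the other 24. Every library comes from the 1 cell line, the labels name no targeting control and do not say whether a line is 1 clone, and nothing says that the 2 libraries of a group come from separate cultures. The p-values below therefore measure only the spread between these samples, which may be technical.

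Depth is unknown, since TPM keeps no read totals. Between 10911 and 11101 genes reached 1 TPM in each of the 24 libraries, replicates correlated across genes with Pearson r from 0.9913 to 0.9958 (genes are not independent replicates), and all 12 interferon-induced genes used as a check of the labels had higher means with IFNγ in each genotype. Of 11 dendritic cell markers 7 had a median of at least 5 TPM, while Flt3, Xcr1 and Clec9a were under 1 TPM, and 6 of 9 macrophage and monocyte markers reached 5 TPM, one of them the member Mertk. No lymphocyte marker (0 of 9) or fibroblast marker (0 of 8) reached 5 TPM, and their summed levels were at most 0.61 and 1.19 TPM. Irf1 transcripts were not lower in the libraries labelled IRF1KO (23.6 to 733 TPM over the 3 treatments) than in WT (19.7 to 532), and Irf2 transcripts were at 17.4 to 28.5 TPM in IRF2KO against 23.4 to 42.1 in WT. Transcript levels thus give no check of the IRF1 label, and the genotype names mean the libraries so labelled.

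IFNγ binds a receptor that activates JAK kinases, and the signal reaches DNA at GAS elements, from which many genes are raised directly. Type I interferons such as IFNα bind another receptor and act mainly through the ISRE. IRF1 and IRF2 bind ISRE-like sites, IRF1 chiefly as an interferon-induced activator. A lower transcript level can come from less synthesis or from faster decay, which these data cannot tell apart.

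The promoters were searched for the sites named above and for common elements. That the members shared a direction with IFNγ was required by the rule and is not a finding. RefSeq promoter windows (GRCm38.p6, 250 bases before to 50 after a start) were found for 38 of the 52 members, 36 by symbol and 2 by an older symbol, giving 52 windows. They were set beside all 32817 windows. All motifs were read on both strands. The GAS letters TTCNNNGAA were in 3.85% of the members' windows and 8.29% of all windows, and the ISRE half-site letters GAAANNGAA in 5.77% and 8.55%. The E-box CACGTG was in 13.5% against 7.15%, AP-1 letters TGANTCA in 11.5% against 7.81%, the CRE TGACGTCA in 0.0% against 1.79% and the ETS letters CCGGAAGT in 0.0% against 3.89%. Among general promoter elements, GGGCGG was in 51.9% against 35.6%, CCAAT in 44.2% against 37.4% and TATAAA in 7.69% against 13.6%. The members' windows had a median GC content of 60.0% and 14 CpG dinucleotides, against 52.67% and 7 over all windows. These are descriptions of letters in a window, and no difference was tested. Every member reached 5 TPM in media, while all windows were taken whatever the level of their genes. No comparison was made with windows of the genes at 5 TPM alone, so the shares may differ by expression level.

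The only GAS letters among these windows lie before the starts of Ptpre, a receptor-type tyrosine phosphatase, and Rnf144b, an E3 ubiquitin ligase. They are shown because GAS is the element of the direct IFNγ response, with the motif in capitals: Ptpre at chr7:135593274-135593302 on the plus strand and Rnf144b at chr13:47122495-47122523 on the plus strand.
Ptpre: gtcaaaatgtTTCTCAGAAatgtcttaca
Rnf144b: atgtaaatagTTCCTTGAAccttgtcgcg

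E-box letters were in 7 windows, those of Ampd3, B3gnt7, Bcar3, Bhlhe41, Cnksr3, Gm16515 and Vgll4. They are shown because this motif's share stood above that of all windows by the largest ratio, and because one of the 7, Bhlhe41, encodes a repressor of the basic helix-loop-helix family, whose members bind E-boxes. Capitals mark the E-box. Ampd3 lies at chr7:110772516-110772541 (plus strand), B3gnt7 at chr1:86303177-86303202 (plus), Bcar3 at chr3:122419577-122419602 (plus), Bhlhe41 at chr6:145865558-145865583 (minus), Cnksr3 at chr10:7212257-7212282 (minus), Gm16515 at chr11:60913812-60913837 (minus) and Vgll4 at chr6:114969247-114969272 (minus). In Gm16515 the E-box overlaps a match to the AP-1 letters.
Ampd3: agcagtgggtCACGTGtcagctctgt
B3gnt7: ccgacgtcccCACGTGtcccgaagga
Bcar3: gttctgcgtgCACGTGtgagagtgat
Bhlhe41: gtacgttccgCACGTGagctgggtgc
Cnksr3: ccgcccctctCACGTGttgctcccgc
Gm16515: gcgcgcagcgCACGTGactcacagct
Vgll4: atgccgtgtcCACGTGccccctgccg

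The drops with IFNγ were moderate. Averaged over the 4 genotypes, the difference in y ran from −0.96 in Hlx to −0.38 in Arhgap12 and Abhd6, with a median of −0.54, and it was −0.5 or lower in 32 members. No member's mean drop reached 1 log2 unit. In bulk RNA, fewer cells with a transcript and less of it per cell cannot be told apart. In the single genotypes the members' medians were −0.52 in WT, −0.51 in IRF1KO, −0.53 in IRF2KO and −0.58 in DKO. The medians of all 8787 genes at 5 TPM were −0.01, −0.03, 0.02 and −0.07. Members were less abundant in media than the 8787 genes, with a median of 16.1 TPM against 31.8. Of the members 15 had under 10 TPM in media, 29 had 10 to 50 and 8 had 50 or more. The largest of a member's 4 drops was in DKO for 23 members, in WT for 12, in IRF2KO for 9 and in IRF1KO for 8. The order of the genotypes depended on scaling. With library medians set equal, the members' medians were −0.55 in WT, −0.51 in IRF1KO, −0.59 in IRF2KO and −0.54 in DKO. As the rule chose the members by this contrast, these values are a description.

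Replicates bear on how evenly the drop appeared. When libraries of the same replicate number were paired, IFNγ was below media in 8 of 8 pairs for 45 members, in 7 of 8 for 6 and in 6 of 8 for 1, Abhd6. The drop that the rule required in each genotype favours such counts, and their share over all genes was not computed. Both IFNγ libraries lay below both media libraries in all 4 genotypes for 34 members (1.18% of the 8787 genes). For 14 members all 8 IFNγ libraries lay below all 8 media libraries whatever the genotype (0.25% of the 8787 genes): Slco4a1, AK161362, Arhgap22, Mertk, Fgd3, Vgll4, Ptchd1, Xbp1, Angptl4, Tlr13, Cd200r1, Ptpre, Dusp7 and Chst12. Just inside the selection limit were Ampd3, Gm13826 and Abhd6, whose smallest drops were all −0.30, and just outside it Cd300lb (−0.30), Mrgpre (−0.29) and Angptl2 (−0.29).

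**Figure D1:**
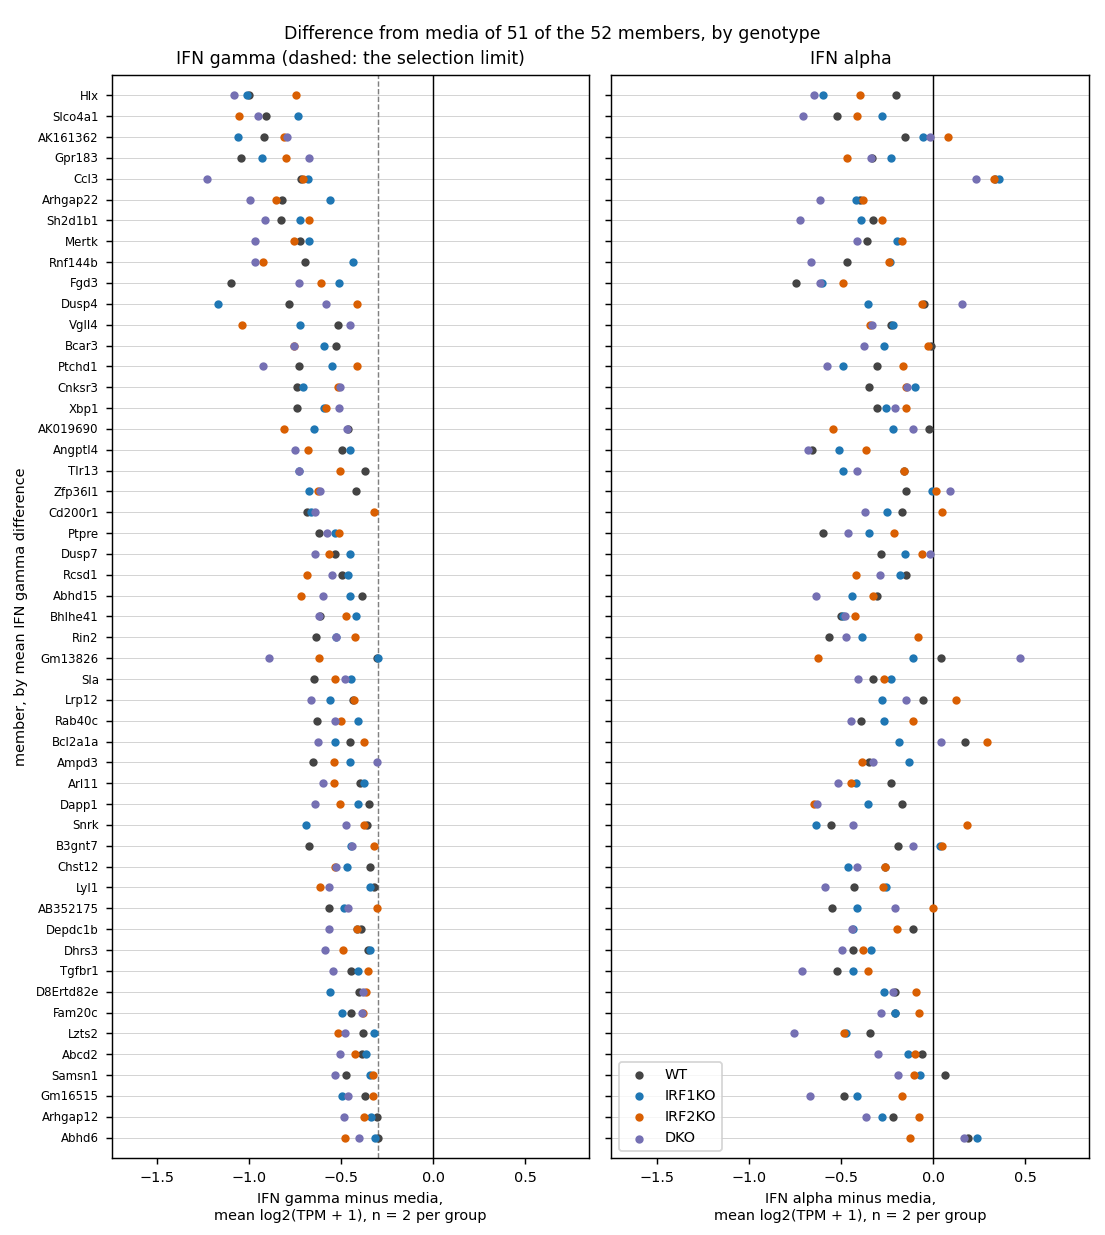
Differences from media in mean log2(TPM + 1) of 51 of the 52 members with IFNγ (left) and IFNα (right), 1 point per genotype, n = 2 libraries per group. With IFNγ every point lies left of the dashed selection limit, as the rule requires, and with IFNα most points lie between −0.75 and 0, those of Ccl3 to the right of 0.

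Few members passed the test across all genes. In limma with Benjamini-Hochberg adjustment over 11842 genes, 4 members were called lower with IFNγ in WT (0.0591% of all genes), 2 in IRF1KO (0.0591%), 5 in IRF2KO (0.0929%) and 4 in DKO (0.076%). Since the rule used this contrast, nothing is read from these counts. Between them 9 members were called in at least 1 genotype: Arhgap22 in 3, Angptl4, Ptchd1, Tlr13 and Vgll4 in 2, and Xbp1, Fgd3, Slco4a1 and Bcar3 in 1. When the number was added as a replicate block, 12, 10, 10 and 17 members were called in WT, IRF1KO, IRF2KO and DKO, where 0.194%, 0.194%, 0.236% and 0.363% of all genes were called lower, and 25 members were called in at least 1 genotype. Slco4a1 and Xbp1 were then called in all 4. The counts without a block rest on single libraries: WT gave 0 without media replicate 1 or IFNγ replicate 2 and 2 without media replicate 2. For IRF1KO they were 0 without media replicate 1 or IFNγ replicate 2 and 1 without either of the other two. For IRF2KO they were 1 without media replicate 2 or IFNγ replicate 1 and 2 without either of the other two, and for DKO 7 without IFNγ replicate 2 and 1 without any of the other 3.

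The roles below order the description; the groups were drawn up after the members were known. Among regulators of transcription and mRNA (6 members), mean drops ran from −0.96 to −0.46. Xbp1, the transcription factor of the unfolded protein response and the most abundant member, was in media at 450 and 426 TPM in WT, 425 and 433 in IRF1KO, 379 and 338 in IRF2KO and 452 and 395 in DKO. With IFNγ it was at 291 and 235 TPM in WT, 310 and 260 in IRF1KO, 267 and 213 in IRF2KO and 278 and 314 in DKO. No IFNγ library reached the lowest media library, and the differences were −0.74 in WT, −0.59 in IRF1KO, −0.58 in IRF2KO and −0.51 in DKO.

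Hlx, a homeobox transcription factor, had the lowest mean difference of all members, yet its replicates varied widely. Its media levels were 7.59 and 24.5 TPM in WT, 12.98 and 35.4 in IRF1KO, 21.4 and 27.2 in IRF2KO and 28.8 and 37.4 in DKO. With IFNγ they were 3.49 and 11.1 TPM in WT, 7.5 and 13.7 in IRF1KO, 13.7 and 14.1 in IRF2KO and 12.3 and 18.2 in DKO, and with IFNα 24.1 and 5.58 TPM in WT, 21.99 and 8.62 in IRF1KO, 30.9 and 10.4 in IRF2KO and 39.2 and 10.6 in DKO. In media and IFNγ replicate 2 was the higher library in every genotype, and with IFNα replicate 1 was. A single order in all media and IFNγ groups with the opposite one in all IFNα groups was found in 194 of the 8787 genes (2.21%), and among the members in Hlx alone. An order opposite with IFNγ alone was seen in 0 genes and with media alone in 1. Groups overlapped in WT and IRF1KO with IFNγ, and in every genotype with IFNα, so the IFNα mean of −0.46 for Hlx averages libraries on both sides of media.

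Vgll4, a cofactor of TEAD transcription factors, ranged widely over genotypes, with IFNγ differences of −0.52 in WT, −0.73 in IRF1KO, −1.04 in IRF2KO and −0.45 in DKO. Its IFNγ libraries were at 49.03 and 50.6 TPM in WT, 40.9 and 52.1 in IRF1KO, 29.2 and 37.6 in IRF2KO and 46.4 and 50.5 in DKO, all below the lowest media library at 55.7 TPM. Zfp36l1, which binds AU-rich mRNA and promotes its decay, had a mean IFNγ difference of −0.58 and a mean IFNα difference of −0.01, the latter above 0 under median or quantile scaling (0.01) and, for 7 libraries, when that library was left out (0.03 to 0.07). Bhlhe41 and Lyl1, another basic helix-loop-helix factor, had mean IFNγ differences of −0.53 and −0.46, and IFNα differences of −0.47 and −0.39.

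**Figure D2:**
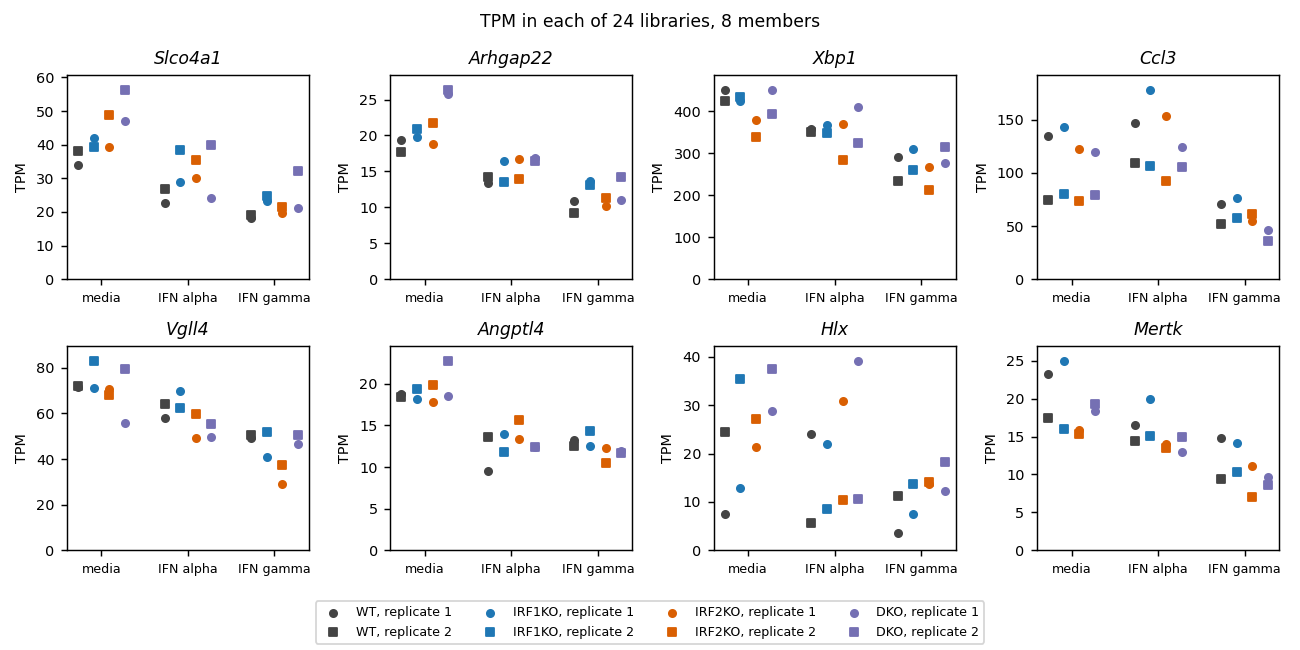
TPM of 8 members in each of the 24 libraries, by treatment (x axis), genotype (colour) and replicate (circle, 1; square, 2). In Slco4a1, Arhgap22, Xbp1, Vgll4, Angptl4 and Mertk the 8 IFNγ points lie below the 8 media points, the Ccl3 means are higher with IFNα than in media, and the Hlx replicates change order with IFNα.

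Ligands, receptors and other surface or secreted proteins (10 members) had mean IFNγ differences from −0.86 to −0.44. In 9 of them IFNγ and media did not overlap in any genotype (1.18% of the 8787 genes), which the rule favours. This count was 4 of 6 for transcription and mRNA, 7 of 11 for phosphatases, kinases and adaptors and 6 of 7 for small GTPases. It was 1 of 2 for ubiquitin and survival, 3 of 9 for transport and metabolism and 4 of 7 for the last group. Ccl3, a chemokine for monocytes, T cells and other leukocytes, was in media at 134 and 74.6 TPM in WT, 143 and 80.5 in IRF1KO, 122 and 73.3 in IRF2KO and 120 and 79.02 in DKO. With IFNγ it was at 70.8 and 51.5 TPM in WT, 76.5 and 57.9 in IRF1KO, 54.4 and 61.02 in IRF2KO and 46.2 and 36.2 in DKO, and with IFNα at 147 and 110 TPM in WT, 178 and 106 in IRF1KO, 154 and 92.5 in IRF2KO and 124 and 106 in DKO. Within each genotype both IFNγ libraries lay below both media libraries, and the IFNγ differences were −0.72 in WT, −0.68 in IRF1KO, −0.71 in IRF2KO and −1.23 in DKO. With IFNα the mean was higher in all 4 genotypes (0.34 in WT, 0.36 in IRF1KO, 0.33 in IRF2KO and 0.23 in DKO), the only member of which this holds, and within replicate numbers IFNα was above media in 8 of 8 pairs, by 0.05 to 0.55. Replicate 1 was the higher library in media and IFNα throughout, so that the unpaired groups overlapped in each genotype.

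Gpr183, the oxysterol receptor that guides positioning of dendritic and B cells, was in media at 7.45 and 4.97 TPM in WT, 7.7 and 6.93 in IRF1KO, 7.1 and 6.14 in IRF2KO and 8.13 and 7.7 in DKO. With IFNγ it was at 3.22 and 1.81 TPM in WT, 3.67 and 3.06 in IRF1KO, 4.24 and 2.64 in IRF2KO and 3.89 and 5.38 in DKO. The groups did not overlap within any genotype, and the differences were −1.04 in WT, −0.93 in IRF1KO, −0.80 in IRF2KO and −0.67 in DKO. Mertk, a receptor kinase for the uptake of apoptotic cells, was in media at 23.3 and 17.4 TPM in WT, 25.01 and 15.98 in IRF1KO, 15.9 and 15.3 in IRF2KO and 18.4 and 19.3 in DKO. With IFNγ it was at 14.8 and 9.41 TPM in WT, 14.2 and 10.3 in IRF1KO, 11.1 and 6.99 in IRF2KO and 9.66 and 8.66 in DKO. Its highest IFNγ library was below its lowest media library, with differences of −0.72 in WT, −0.68 in IRF1KO, −0.76 in IRF2KO and −0.97 in DKO.

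Angptl4, a secreted inhibitor of lipoprotein lipase, was about as low with IFNα as with IFNγ, with mean differences of −0.55 and −0.59. Its media libraries were at 18.7 and 18.4 TPM in WT, 18.2 and 19.3 in IRF1KO, 17.9 and 19.9 in IRF2KO and 18.5 and 22.8 in DKO. Those with IFNα were at 9.52 and 13.6 TPM in WT, 13.95 and 11.8 in IRF1KO, 13.4 and 15.6 in IRF2KO and 12.5 and 12.4 in DKO, and those with IFNγ at 13.3 and 12.5 TPM in WT, 12.5 and 14.4 in IRF1KO, 12.3 and 10.5 in IRF2KO and 11.9 and 11.7 in DKO. Neither interferon overlapped media. Tgfbr1, a type I receptor of TGF-beta, had mean differences of −0.44 with IFNγ and −0.51 with IFNα, and all 8 of its IFNα libraries (32.8 to 41.9 TPM) lay below all 8 media libraries (43.3 to 69.0 TPM). Tlr13, a sensor of bacterial ribosomal RNA, Cd200r1, an inhibitory receptor of myeloid cells, Ptchd1, a membrane protein with a patched domain, and Lrp12, of the LDL receptor family, had mean IFNγ differences of −0.58, −0.58, −0.66 and −0.52.

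Phosphatases, kinases and adaptors (11 members) had mean IFNγ differences from −0.79 to −0.42. Sh2d1b1, an adaptor of SLAM family receptors, was lowest. Its media libraries were at 8.6 and 6.03 TPM in WT, 8.26 and 6.23 in IRF1KO, 6.57 and 4.42 in IRF2KO and 12.6 and 9.19 in DKO, and its IFNγ libraries at 5.78 and 2.16 TPM in WT, 3.68 and 4.24 in IRF1KO, 3.38 and 2.66 in IRF2KO and 6.01 and 4.56 in DKO. Dusp4 and Dusp7, phosphatases of MAP kinases, had mean differences of −0.74 and −0.55. The Dusp4 drop was widest in IRF1KO and narrowest in IRF2KO (−0.79 in WT, −1.17 in IRF1KO, −0.41 in IRF2KO and −0.58 in DKO), and with IFNα its mean was −0.08, which turned positive (0.01 to 0.03) when any of 4 libraries was left out singly. Bcar3, Cnksr3, Ptpre, Sla, Dapp1, Snrk, Samsn1 and D8Ertd82e (Prag1 in RefSeq), most of them adaptors or scaffolds of tyrosine kinase and Ras signalling, had mean drops between −0.66 and −0.42. No member of this group was free of overlap with IFNα in all 4 genotypes (0.432% of the 8787 genes were), and 7 were with IFNγ (1.18%).

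Of the 7 small GTPases and their regulators, Arhgap22, a GTPase-activating protein for Rac, was called lower with IFNγ in the most genotypes, 3. It was in media at 19.3 and 17.6 TPM in WT, 19.7 and 20.9 in IRF1KO, 18.8 and 21.7 in IRF2KO and 25.8 and 26.4 in DKO. With IFNα its libraries were at 13.4 and 14.2 TPM in WT, 16.4 and 13.6 in IRF1KO, 16.8 and 13.9 in IRF2KO and 16.9 and 16.4 in DKO. With IFNγ they were at 10.8 and 9.22 TPM in WT, 13.7 and 13.1 in IRF1KO, 10.1 and 11.3 in IRF2KO and 11.03 and 14.3 in DKO. All IFNα libraries lay below all media libraries, and so did all IFNγ libraries. Fgd3, an exchange factor for Cdc42, had the lowest media level of all members and IFNγ differences of −1.10 in WT, −0.52 in IRF1KO, −0.61 in IRF2KO and −0.73 in DKO, beside IFNα differences of −0.75 in WT, −0.60 in IRF1KO, −0.49 in IRF2KO and −0.62 in DKO. Rin2, Rab40c, Arl11, Depdc1b and Arhgap12 had mean IFNγ differences of −0.53, −0.52, −0.48, −0.45 and −0.38.

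Rnf144b and Bcl2a1a form the small group of ubiquitin and survival genes. Rnf144b had a mean IFNγ difference of −0.76. Bcl2a1a, an anti-apoptotic relative of BCL2, was in media at 91.8 and 77.9 TPM in WT, 87.8 and 79.5 in IRF1KO, 104 and 91.3 in IRF2KO and 141 and 98.8 in DKO. With IFNγ it was at 66.2 and 57 TPM in WT, 71.9 and 45.9 in IRF1KO, 85.7 and 65.4 in IRF2KO and 83.8 and 69.2 in DKO, without overlap in any genotype. Bcl2a1a has near-identical copies in the mouse genome, so its level is uncertain.

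Transport, metabolic and glycosylation genes (9 members) had mean IFNγ differences from −0.91 to −0.38. Slco4a1, an organic anion transporter, was in media at 33.9 and 38.1 TPM in WT, 41.96 and 39.3 in IRF1KO, 39.2 and 48.9 in IRF2KO and 47.02 and 56.4 in DKO. With IFNα its libraries were at 22.8 and 26.7 TPM in WT, 28.9 and 38.4 in IRF1KO, 29.97 and 35.5 in IRF2KO and 24.3 and 39.8 in DKO. With IFNγ they were at 18.2 and 19.1 TPM in WT, 23.3 and 24.7 in IRF1KO, 19.6 and 21.5 in IRF2KO and 21.1 and 32.2 in DKO. Its highest IFNγ library lay below its lowest media library, and with IFNα both libraries were below both media libraries in each genotype. Fam20c, the Golgi kinase of secreted proteins, and Dhrs3, a retinal reductase, were among the 5 most abundant members, with media libraries between 124 and 240 TPM and between 62.3 and 105 TPM. In both of them replicate 1 was the higher library throughout. Their IFNγ and media groups overlapped in every genotype for Fam20c and in all but 1 for Dhrs3. Abcd2 (a peroxisomal fatty acid transporter), Ampd3 (AMP deaminase), Abhd6 (a monoacylglycerol lipase), Abhd15, B3gnt7 and Chst12 (which build and sulfate glycan chains) lay between −0.54 and −0.38.

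The last 7 members were Lzts2, Rcsd1, Gm16515 (Natd1 in RefSeq), Gm13826 and the symbols AK161362, AK019690 and AB352175, for which no role is given. AK161362 was in media at 16.3 and 13.9 TPM in WT, 13.02 and 13.5 in IRF1KO, 13.1 and 11.8 in IRF2KO and 12.7 and 16.5 in DKO. With IFNγ it was at 9.04 and 6.15 TPM in WT, 8.19 and 4.09 in IRF1KO, 6.12 and 7.24 in IRF2KO and 8.12 and 7.65 in DKO, with no overlap between the 8 libraries of each. Its mean IFNα difference was −0.04, and 0.01 when any of 3 libraries was left out singly. Gm13826 is a near-identical copy of a ribosomal protein gene and is uncertain, and its replicates in media were as far apart as 20.5 and 6.74 TPM in WT.

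In the genome the members were scattered. GENCODE M21 (GRCm38) gave positions for 46, on 20 chromosomes, and the closest pair, Fam20c and Chst12 on chromosome 5, lay 1695473 bases apart. Genes on the same strand overlapped Snrk (3 genes), Bcar3 (2) and Mertk, Ptpre, Rin2 and Ampd3 (1 each), and strand cannot separate their reads. A gene on the opposite strand overlapped 20 of the 46. The strand setting of the counting is not given in the sources used here, so reads of such partners cannot be told apart; this touches Gpr183, Arhgap22, Mertk, Rnf144b, Bcar3, Ptchd1, Zfp36l1, Ptpre, Rcsd1, Abhd15, Bhlhe41, Rin2, Sla, Rab40c, Ampd3, Arl11, B3gnt7, Lyl1, Lzts2 and Samsn1.

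With IFNα most members were also below media, by less. These differences share the media libraries with the IFNγ differences, on which the members were chosen, so they are given side by side and not as separate support. The rule asked for a drop with IFNγ and not with IFNα, so a smaller difference with IFNα is partly built into the selection. The members' medians with IFNα were −0.29 in WT, −0.27 in IRF1KO, −0.18 in IRF2KO and −0.41 in DKO, and those of all 8787 genes −0.06, −0.07, 0.08 and −0.09. Under median scaling the members' medians were −0.23 in WT, −0.21 in IRF1KO, −0.29 in IRF2KO and −0.34 in DKO. Averaged over genotypes, the median was −0.30 with IFNα and −0.54 with IFNγ, and 48 members were less low with IFNα. Tgfbr1, Lzts2 and Gm16515 were among the 4 exceptions. Mean y with IFNα was lower in all 4 genotypes for 39 members, for which the share over all genes was not computed. Of the 8787 genes 66.8% were lower in WT, 66.3% in IRF1KO, 29.7% in IRF2KO and 69.3% in DKO. Mean y was lower by at least 0.3 in all 4 for 9 members (0.273% of the 8787 genes), among them Arhgap22, Fgd3, Angptl4, Abhd15, Bhlhe41, Dhrs3, Tgfbr1 and Lzts2. Both IFNα libraries were below both media libraries in all 4 genotypes for 10 members (0.432%), and all 8 below all 8 for 4 (0.114%), among them Arhgap22, Angptl4 and Tgfbr1. The highest mean IFNα differences were those of Ccl3 (0.31), Abhd6 (0.12), Bcl2a1a (0.08) and Zfp36l1 (−0.01), of which Abhd6 fell below 0 when WT IFNα replicate 1 (−0.03) or DKO media replicate 1 (−0.02) was left out. The sign for Zfp36l1 also turned with 1 library left out, as given above.

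By limma the IFNα calls were sparse. In WT 0 members were called lower (0.0% of all genes; 11 at an unadjusted p under 0.05), in IRF1KO 0 (0.00844%; 12 unadjusted) and in IRF2KO 0 (0.00844%; 4 unadjusted). In DKO 2 were called (0.0422%; 19 unadjusted): Angptl4 fell by 0.68 (SE 0.16, limma adjusted p = 0.0489) and Arhgap22 fell by 0.62 (SE 0.14, limma adjusted p = 0.0498), each with both IFNα libraries below both media libraries. Leaving out any 1 DKO library of that comparison gave 0 or 1 called members. With the replicate block there were 1, 0, 0 and 5 calls, where 0.0338%, 0.0169%, 0.0169% and 0.245% of all genes were called lower. The block assumes that a replicate number shifts a gene alike in every group, and media and IFNα libraries of the same number deviated together less in WT (r = −0.01 over the tested genes) and IRF1KO (0.13) than in IRF2KO (0.23) and DKO (0.26). The standard error of a difference between 2 groups had a median of 0.24 over the members, so a drop of 0.3 is close to 1 standard error.

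Loss of IRF1 or IRF2 was compared within the IFNα libraries, which the drop rule did not use, and within the media libraries, which it did. Each comparison is the mean of the differences on both backgrounds. Without IRF1, 0 members were called in the IFNα libraries by limma (0.515% of all genes were lower and 0.0338% higher; 1 member had an unadjusted p under 0.05) and 0 in media (0.0591% lower, 0.00844% higher; 3 unadjusted). In media 44 of the 52 members stood above 0 in the IRF1-deficient cells, with a median of 0.15, while the median of all genes was 0.08 and 29.9% of all genes stood below 0. Under median scaling 38 members stood above 0, with a median of 0.06, while that of all genes was −0.0046. Under quantile scaling 39 did, with medians of 0.08 and 0.02. Without IRF2, 0 members were called lower and 2 higher in the IFNα libraries (1.0% lower and 1.57% higher over all genes; 7 members unadjusted), and 0 lower and 1 higher in media (1.02% lower, 0.743% higher; 5 unadjusted). These counts are near the background shares and are not read as a result about the members as a group.

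Bhlhe41 was the member called in both IRF2 comparisons. In media it was at 34.5 and 34.4 TPM in WT, 29.3 and 30.1 in IRF1KO, 56.4 and 41.8 in IRF2KO and 50.1 and 41.96 in DKO, and with IFNα at 26.9 and 21.5 TPM in WT, 20.2 and 21.5 in IRF1KO, 43.6 and 29.4 in IRF2KO and 34.5 and 30.8 in DKO. All 4 IRF2-deficient libraries lay above all 4 IRF2-present ones in media, and again with IFNα. The difference was 0.55 in media (SE 0.13, limma adjusted p = 0.0422) and 0.59 with IFNα (SE 0.13, limma adjusted p = 0.0208). Leaving out 1 library at a time, the media difference ranged from 0.44 to 0.65 and lost its call in 7 of 8 cases, and the IFNα difference ranged from 0.45 to 0.73 and lost it in 5 of 8. The lower levels of Bhlhe41 with IFNγ were seen on top of this: 21.8 and 22.5 TPM in WT against 39.5 and 30.3 in IRF2KO.

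AB352175 was called in the IFNα libraries, at 28.7 and 34.2 TPM in WT, 23.3 and 35.5 in IRF1KO, 45.5 and 41.2 in IRF2KO and 41.4 and 44.7 in DKO. The 4 IRF2-deficient libraries lay above the other 4, with a difference of 0.51 (SE 0.12, limma adjusted p = 0.0387). In media its difference was 0.13 and the groups overlapped. The call was lost in 7 of 8 cases with 1 library left out (0.36 to 0.65), without the filter on low values and under median and quantile scaling. Bcl2a1a was not called without the block (0.52 with IFNα, SE 0.16, limma adjusted p = 0.125), and was called with it in both treatments (0.52 with IFNα, SE 0.07, limma adjusted p = 0.000456; 0.35 in media, SE 0.07, limma adjusted p = 0.0138). Its IFNα libraries were at 105 and 86.9 TPM in WT, 82.3 and 65.1 in IRF1KO, 130 and 110 in IRF2KO and 142 and 104 in DKO.

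**Figure D3:**
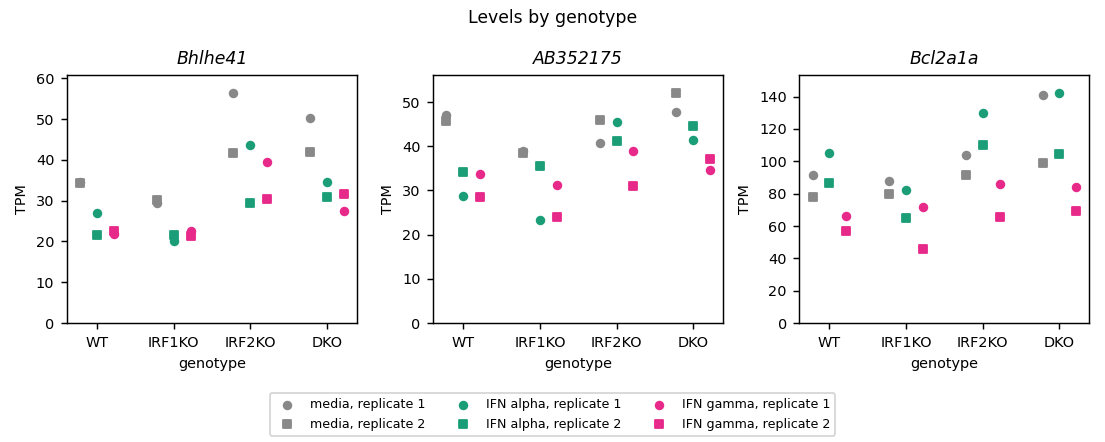
TPM of Bhlhe41, AB352175 and Bcl2a1a by genotype (x axis), treatment (colour) and replicate (circle, 1; square, 2). The IRF2KO and DKO points of Bhlhe41 lie above those of WT and IRF1KO in each treatment, from 27.4 TPM with IFNγ upward.

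The single libraries, which the selection did not use, showed the members with another stimulus. There is 1 library per group, so the differences have no test and no replicate check. No single library was left untreated for 2 h, so a stimulus cannot be told apart from 2 h of culture in a difference from 0 h. At 0 h 34 members had at least 5 TPM in both genotypes, against 7503 genes in all, and AK161362, Gm16515, AK019690 and AB352175 were listed at 0 in all 6 libraries. With IFNα 7 of the 34 were lower by at least 0.3 in Dc3.2 (3.56% of the 7503 genes) and 17 in Dc3.2_Irf2KO (4.73%), and 4 in both (0.893%). The members' medians were −0.06 and −0.30. Ccl3 was at 120 TPM at 0 h and 156 with IFNα in Dc3.2, and at 122 and 140 in Dc3.2_Irf2KO.

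Differences from 0 h were larger in both directions in the libraries with LPS, which acts through TLR4 and NF-kB. Of the 34 members 20 were lower by at least 0.3 in Dc3.2 (11.3% of all genes) and 23 in Dc3.2_Irf2KO (28.8%), and 20 were lower in both (8.21%). The medians over the members were −0.56 and −0.92, and over all genes −0.06 and −0.15. Median scaling left medians over all genes of −0.04 and −0.01, and 20 and 21 members then were lower by 0.3, against 10.2% and 14.8% of all genes. A further 7 members were higher by at least 0.3 in both genotypes (4.28%): Ccl3, Bcl2a1a, D8Ertd82e, Samsn1, Fam20c, Zfp36l1 and Slco4a1.

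Gpr183 was lowest, at 13.2 TPM at 0 h and 1.88 with LPS in Dc3.2 and at 16.02 and 1.22 in Dc3.2_Irf2KO, which are differences of −2.30 and −2.94. Arl11, an ARF-like GTPase of macrophages, went from 9.22 to 3.51 TPM and from 18.04 to 3.16 TPM. Rin2, an exchange factor for Rab5, went from 16.4 to 5.56 TPM and from 20.5 to 4.78 TPM. Among the 20 lower members were also Xbp1, Vgll4, Mertk, Angptl4 and Tgfbr1.

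Ccl3 stood at the other end, at 120 TPM at 0 h and 3130 with LPS in Dc3.2, and at 122 and 3833 in Dc3.2_Irf2KO. Bcl2a1a went from 177 to 490 TPM and from 185 to 588 TPM. D8Ertd82e went from 7.16 to 19.9 TPM and from 7.64 to 18.7 TPM. The 20 members lower with LPS had a median IFNα difference of −0.31 in the replicated libraries, between −0.55 and −0.05, and the 7 higher ones a median of −0.08, between −0.48 and 0.31. Their median IFNγ differences were −0.53 and −0.50.

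**Figure D4:**
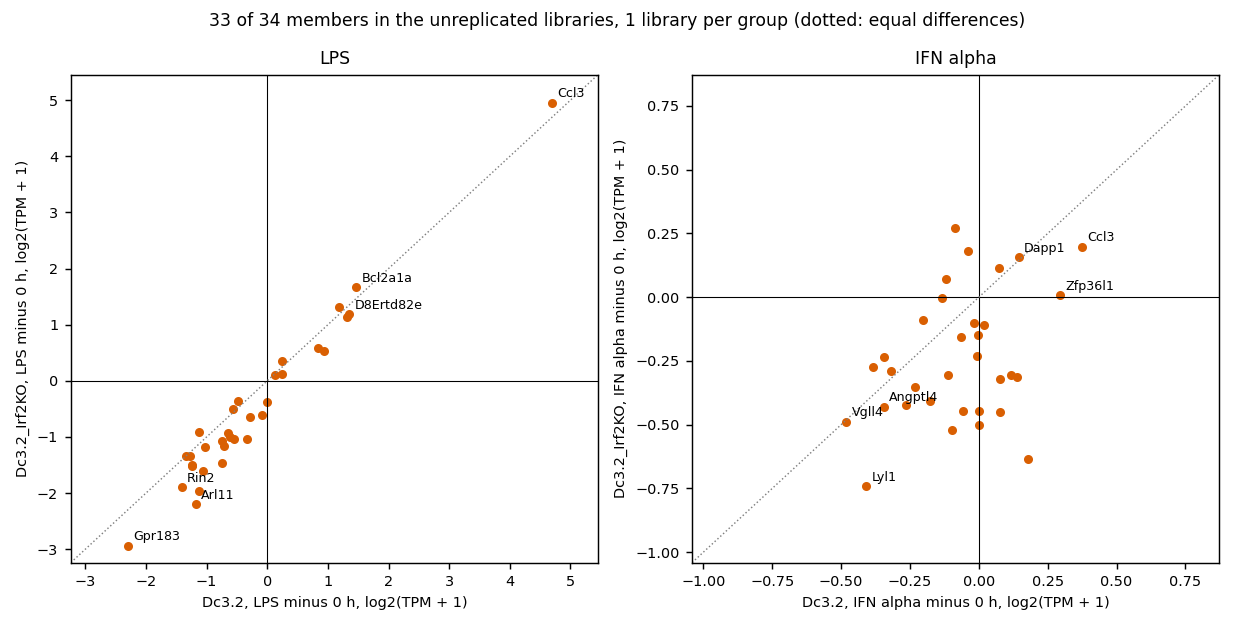
Differences of log2(TPM + 1) from 0 h in Dc3.2 (x axis) and Dc3.2_Irf2KO (y axis) with LPS (left) and IFNα (right), 1 point for each of 33 of the 34 members with at least 5 TPM at 0 h, 1 library per group. With LPS Ccl3 lies at 4.69 and 4.96 and Gpr183 at −2.30 and −2.94, and with IFNα most points lie below 0 on the y axis.

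Few genes of pathways near the members passed the test. The lists hold Dusp4 (ERK feedback), Tgfbr1 (TGF-beta and BMP) and Gpr183 (chemotactic receptors) as their only members. Of 24 tested genes of ERK feedback and the immediate early response 0 were called lower with IFNγ in any genotype by limma (2 to 5 per genotype had an unadjusted p below 0.05), and 1, 1, 2 and 1 higher in WT, IRF1KO, IRF2KO and DKO. Of 21 STAT5 and cytokine survival targets 1 was called lower in each genotype (Cish in WT, Socs2 in the other 3) and 1 higher. Cish and Socs2 had met the drop of the rule before they were left out by name, so nothing is read from their calls. Over all 11842 genes 7, 7, 11 and 9 were called lower and 142, 130, 123 and 83 higher in WT, IRF1KO, IRF2KO and DKO. The limma test called 0 of 22 TGF-beta and BMP genes either way in any genotype (0 to 3 unadjusted), 0 of 18 chemotactic and purinergic receptors (3 to 4 unadjusted) and 0 of 18 cholesterol genes (1 to 3). It also called 0 of 10 Wnt genes (0 to 2 unadjusted), 0 of 11 Kruppel-like factors (0 to 5), 0 of 25 cell cycle genes (0 to 1) and 0 of 20 ribosome biogenesis genes (0 to 1). Of 9 Notch genes Hey1 was called lower and 1 gene higher, both in IRF2KO. Of 13 cAMP-CREB targets 0 were called lower by limma and 2, 1, 3 and 2 higher (2 to 6 unadjusted), and of 18 p53 targets 0 lower and 1 higher in WT (2 to 4 unadjusted). The list medians lay between −0.18 and 0.34. With the block 1 gene was called lower in 1 or 2 genotypes in each of the ERK, Notch, Kruppel-like factor, chemotactic receptor and cell cycle lists, and 2 in every genotype in the STAT5 list. The ERK and chemotactic calls were those of the members Dusp4 and Gpr183, in WT and IRF1KO. The rule chose both on this contrast, so nothing is read from these calls. With the block 1.74%, 1.57%, 1.82% and 1.29% of all genes were called higher in WT, IRF1KO, IRF2KO and DKO. Higher calls with the block were 1, 2 and 2 of the chemotactic and purinergic receptors in IRF1KO, IRF2KO and DKO, 1 cholesterol gene in IRF1KO, 1, 1 and 3 p53 targets in WT, IRF1KO and IRF2KO, and 1 Notch gene each in IRF2KO and DKO. In the ERK, STAT5 and cAMP-CREB lists 1 to 4 genes per genotype were called higher with it, and in the TGF-beta and BMP, Wnt and ribosome lists 0 either way.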

How the data were processed

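The authors deposited TPM values from RSEM for 30 libraries, and per the submitters' processing notes bcl2fastq 2.20, Bowtie 0.12.2, mm10 and GRCm38 were used, without the role of each build. TPM holds no counts, so no count model was run. The table's 41346 entries were summed to 31427 symbols within each transcript set.

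The members and gene lists were chosen with earlier results of these data known. Genes were tested where 2 or more of the 24 libraries held 1 TPM or more (11842 genes). On log2(TPM + 1), limma 3.58.1 (R 4.3.3) estimated 12 group means with trended variances. That leaves 12 residual degrees of freedom, or 11 with the replicate block. Tests were two-sided, adjusted by Benjamini-Hochberg over all genes, and called at an adjusted p under 0.05. The method was tested on simulated data.

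In the titles both numbers go with a date-like code, the same for all groups, and were treated as pairing the libraries. Same-numbered libraries deviated together (r over 0.1) in 56 of 66 group pairs, among them 16 of 16 between media and IFNγ and 12 of 16 between media and IFNα. A code has 1 library of every group, which allows no test within it.

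Named genes were the 12 members with the lowest mean IFNγ difference, the 5 most abundant, 3 on each side of the limit, called members (up to 5 a direction), the 3 with the widest range, the 4 lowest and 4 highest with IFNα, list members, and the 3 lowest and 3 highest with LPS. Other members were named after their values were seen. Lists of pathway genes covered STAT5, ERK, TGF-beta and BMP, Notch, Wnt, Kruppel-like, chemotactic, cholesterol, cell cycle, ribosome, p53 and cAMP-CREB genes. Alternatives were pseudocounts of 0.1 and 5, other filters, median and quantile scaling, robust variances, the compared groups alone, the block, and leaving out each library. Python 3.11.15 with pandas 2.3.3 and numpy 2.4.6 was used for the single libraries and promoters, and matplotlib 3.10.9 for plots. The values of 1 member are not reported here.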

Additional observations from a re-analysis of the deposited data

Results flagged for a closer look

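Only members named by rank, limit or list were searched here. In 3 of them IFNα libraries, paired with media by replicate number, differed from media in opposite directions in different genotypes. Every replicate pair of one genotype went up and every pair of the other went down. B3gnt7, which was not searched, also met this, with mean differences of 0.04 in IRF1KO against −0.19 in WT and −0.11 in DKO. None of these differences was tested. How often replicate spread alone gives such a pattern was not tested, and its share over all members or all genes was not computed. Taken unpaired, IFNα and media libraries overlapped in WT and IRF1KO for Bcl2a1a and in WT and DKO for Zfp36l1. For Gm13826 they did not overlap in DKO or IRF2KO. For Bcl2a1a, whose near-identical copies make its level uncertain, the mean IFNα minus media difference was 0.17 in WT, 0.30 in IRF2KO and 0.04 in DKO against −0.19 in IRF1KO, gaps of 0.363, 0.484 and 0.233. For Gm13826, a copy of a ribosomal protein gene, it was 0.47 in DKO and −0.63 in IRF2KO, a gap of 1.1. For Zfp36l1 it was 0.09 in DKO and −0.15 in WT, a gap of 0.237.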

How the results depend on the processing

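No result changed direction with a call. The rule gave 52 members, and 29 with a pseudocount of 5, 124 at a drop of 0.2, 14 at a drop of 0.5 and 40 to 57 with 1 library left out. It left 14 when the drop was asked for in both replicate numbers of each genotype. The remaining alternatives for the number of members stayed within 1.5 times of it.

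The replicate block moved more counts than any scaling. With the number as a block, 12, 10, 10 and 17 members were called lower with IFNγ in WT, IRF1KO, IRF2KO and DKO, where 4, 2, 5 and 4 were called without it. With IFNα there were 1 and 5 in WT and DKO, where 0 and 2 were called without it, and 2 for IRF2 loss in media, where 1 was. Counts in the other paired comparisons stayed within 1.5 times.

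With the compared groups alone all 4 IFNγ counts, the DKO IFNα count and both IRF2 counts fell to 0, with fewer samples behind the spread. Without a filter the IFNγ calls were 2 in WT, 1 in IRF1KO and 3 in IRF2KO, the DKO IFNα calls 0 and the IRF2 calls 1 with IFNα and 0 in media, over more genes tested. Median scaling gave 8 calls in WT with IFNγ and 1 each for DKO IFNα and IRF2 with IFNα. Quantile scaling gave 7 in WT and 5 in IRF1KO with IFNγ and 1 each for the same other counts. A pseudocount of 5 gave 3 in IRF2KO with IFNγ, and a pseudocount of 0.1 or robust variances gave 0 in DKO with IFNα. For the scalings, pseudocounts and robust variances the cause was not tested. With 1 library left out the IFNγ counts ran from 0 to 4 in WT, 0 to 1 in IRF1KO, 1 to 2 in IRF2KO and 1 to 7 in DKO, the IFNα counts from 0 to 1 in WT and in DKO, and both IRF2 counts from 0 to 1. Where 1 library was left, it was assumed to vary like the other groups.

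In the single libraries the IFNα counts of 7 and 17 became 2 and 10 with a pseudocount of 5, and 1 and 5 at a drop of 0.5. Of 1131 recomputed values for named members 998 were kept and 107 moved beyond the spread of the member's difference between genotypes. That spread is not a replicate spread. The recomputed values include limma calls, which were judged by whether the call was kept. The values neither kept nor moved were limma calls that were lost. TPM keeps no depth, so the counting error of low members such as Fgd3 is unknown, and with 2 libraries a group a member's drop of 0.3 could not be called.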
